A study of Mus musculus with 21 samples.

Results

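*Cenpk* and *Ppwd1* are adjacent genes on mouse chromosome 13, and *Trim23*, *Sgtb*, *Nln* and *Erbin* lie beside them within 434 kb. These 6 genes were listed by name and matched by symbol to the Ensembl identifiers of the count table, which holds 54232 genes. All 6 were found and all 6 passed the filter on low counts. The genes were chosen by their place on the chromosome and with their levels and differences in these same libraries already known, so both are given as a description, without a test.

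The libraries were poly(A) RNA from fully grown mouse oocytes at the germinal vesicle stage, 3 oocytes a library. The series asked how much *Kif11*, the kinesin that pushes spindle poles apart, an oocyte needs. The groups were *Kif11* wt/fl (labelled WtFlox, 4 libraries), wt/fl Spo11-Cre (WtFlox, Spo11-Cre, 5), fl/del (FloxDel, 4), fl/del Spo11-Cre (FloxDel, Spo11-Cre, 4), fl/fl Gdf9-Cre (FloxFlox, Gdf9-Cre, 2) and fl/fl Zp3-Cre (FloxFlox, Zp3-Cre, 2). Here fl is the floxed allele, which Cre recombinase can delete, and del is the allele deleted in every cell of the mouse.

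Every group carried at least 1 floxed allele, so none was fully wild type. Spo11-Cre acts from early meiotic prophase, Gdf9-Cre and Zp3-Cre are oocyte-specific drivers, and all of these drivers act in germ cells. Mice were on a C57BL/6 background, and per the study's methods oocytes came from females aged 3 to 4 months that had been primed with hormone. A mouse gave 1 or 2 libraries, and library names share a prefix in 8 pairs among the 17 libraries of the Spo11-Cre background. These 17 libraries carry 9 prefixes, and in wt/fl, fl/del and fl/del Spo11-Cre every library shares its prefix with another of its group. Whether a prefix marks a mouse is not stated. If it does, fewer mice than libraries stand behind each n, SD, SE and overlap given for those groups. No library of the fl/fl groups lacked Cre, and genotype, driver and set of libraries changed together there and cannot be told apart.

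Total counts were 7205010 to 18454549 a library, and fl/del replicate 3 was the shallowest. The fl/fl libraries, at 7801470 to 10759741, were shallower than every other library but that one. Depth thus changed together with the fl/fl groups as well. *Kif11* followed the labels, at 34.5 CPM ± 8.46 (SD, n = 4) in wt/fl and 1.78 ± 0.685 (SD, n = 4) in fl/del Spo11-Cre. CPM is a gene's count scaled to a library total of 1000000. As each library pools 3 oocytes, differences between the oocytes of a pool could not be seen. The 12 oocyte markers summed to 22443 to 31928 CPM over the 21 libraries. The 16 follicle cell markers summed to 73.9 to 127 CPM, with 8 of the 16 at a median of 0, and most of that sum came from *Cyp19a1* and *Nr5a2*. Of 5 blood and stroma markers, 4 had a median of 0 and *Pecam1* made up nearly all of the sum of 16.6 to 34.8 CPM. In wt/fl the follicle sum was 84.6 to 127 CPM and in wt/fl Spo11-Cre 73.9 to 103 CPM, so these ranges overlapped. The part of these sums in the results was not tested.

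CENP-K, the product of *Cenpk*, is a subunit of the constitutive centromere-associated network, the protein layer that sits on CENP-A chromatin and carries the microtubule-binding outer kinetochore. PPWD1 is a nuclear cyclophilin, a peptidyl-prolyl isomerase with WD40 repeats that is found with the spliceosome. TRIM23 is a ubiquitin ligase that also carries an ARF-type GTPase domain, and SGTB is a small co-chaperone with tetratricopeptide repeats. Neurolysin, from *Nln*, is a metallopeptidase that cuts short peptides such as neurotensin, and Erbin is a scaffold protein that binds the receptor ERBB2. A fully grown oocyte makes little new RNA, so its poly(A) RNA is mostly a store laid down during growth.

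On GRCm38 the genes are, from low to high coordinate, *Erbin* at chr13:103818787-103920514 (minus strand), *Nln* at chr13:104023057-104109614 (minus), *Sgtb* at chr13:104109741-104141735 (plus), *Trim23* at chr13:104178797-104203372 (plus), *Ppwd1* at chr13:104205124-104228843 (minus) and *Cenpk* at chr13:104228611-104252392 (plus). *Trappc13*, a subunit of the TRAPP vesicle-tethering complexes, lies between *Sgtb* and *Trim23*. *Ppwd1* and *Cenpk* are read away from each other and their first exons overlap by 233 bases on opposite strands, 3.96% of the exonic bases of *Ppwd1* and 4.45% of those of *Cenpk*. The library kit does not mark strand, so reads from those 233 bases could not be assigned to either gene by sequence alone. *Nln* and *Sgtb* are also read away from each other, with 126 bases between them.

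Parts of the stretches between the 2 divergent pairs of starts are shown because each lies between annotated starts of 2 of the 6 genes. In the sequences, taken from the RefSeq promoter table of GRCm38.p6 and printed 5′ to 3′ on the plus strand, capitals mark a CCAAT box (CCAAT on either strand, the element that NF-Y binds) in the first and a GC box (GGGCGG on either strand, the element that SP1 binds) in the second. The first runs from chr13:104228901-104228930 and lies in the first exon of 1 annotated *Cenpk* transcript. The second runs from chr13:104109674-104109722, outside the exons of both genes. They are 30 of the 121 bases and 49 of the 126 bases counted below, so the second holds only some of the GC boxes counted there.
Ppwd1 and Cenpk: ATTGGctgcggtgggcgcagctggtCCAAT
Nln and Sgtb: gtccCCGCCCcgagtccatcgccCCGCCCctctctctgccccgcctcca

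The whole 121 bases between the RefSeq start of *Ppwd1* and the middle of the 3 listed *Cenpk* starts held 2 CCAAT boxes, 1 in each orientation, and no GC box. Of 32851 RefSeq promoters, 4.66% held at least 2 CCAAT boxes in the 121 bases before their start and 21.4% held at least 1. The 126 bases between *Nln* and *Sgtb* held 4 GC boxes, which 1.74% of promoters matched or exceeded over the same length, and no CCAAT box. Neither stretch held TATAAA or CACGTG. In the 250 bases before its start, *Trim23* had 1 CCAAT box and 1 GC box, *Erbin* had 3 GC boxes and no CCAAT box, and *Trappc13* had neither. These matches describe letters only.

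Per length, *Cenpk* was the most abundant of the 6 genes. Over the 21 libraries it had a median of 44.2 TPM, the authors' length-scaled share of the library's transcripts, with a range of 29.4 to 58.2. *Nln* had a median of 11.4 TPM (7.94 to 15.7), *Ppwd1* of 11.1 (5.88 to 18.3) and *Trim23* of 6.66 (4.11 to 10.2). *Erbin*, at 1.85 TPM (0.772 to 3.31), and *Sgtb*, at 1.44 (0.224 to 3.10), were the lowest. The lowest counts behind them were 20 for *Erbin* and 4 for *Sgtb*, against 664 for *Cenpk* and 106 for *Ppwd1*. Among genes counted 100 times or more, these counts were a median of 1.96 times those of the table with *Kif11* counted over exon 22 alone. Whether a count is a read or a read pair is not stated, so the fragments behind a value may be fewer than its count. *Trappc13*, in the middle of the same genes, was above all 6 at 65.1 TPM (46.5 to 79.7).

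*Cenpk* was lowest in wt/fl and higher in every other group. Its level was 64.0, 62.0, 75.4 and 78.9 CPM in the 4 wt/fl libraries and 97.7, 105, 92.2 and 94.7 CPM in the 4 fl/del libraries. Those groups did not overlap. In wt/fl Spo11-Cre it was 84.2, 96.0, 96.6, 72.9 and 79.3 CPM, which overlapped wt/fl. The 4 fl/del Spo11-Cre libraries had 105, 104, 101 and 125 CPM. The lowest fl/del Spo11-Cre library was thus above the highest wt/fl Spo11-Cre library. The fl/fl Gdf9-Cre libraries were at 117 and 102 CPM and the fl/fl Zp3-Cre libraries at 106 and 86.1 CPM, all above the highest wt/fl library.

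From low to high, *Cenpk* averaged 70.1 CPM ± 8.35 (SD, n = 4) in wt/fl and 85.8 ± 10.4 (SD, n = 5) once wt/fl carried Spo11-Cre. Next came fl/fl Zp3-Cre at 96.1 ± 14.1 (SD, n = 2) and fl/del at 97.4 ± 5.68 (SD, n = 4). Highest were fl/del with Spo11-Cre, at 109 ± 11.0 (SD, n = 4), and fl/fl Gdf9-Cre, at 109 ± 10.6 (SD, n = 2). Neighbours in that order overlapped in their libraries at every step. Relative to wt/fl, the del allele alone went with 139% and del plus Spo11-Cre with 155%. Over both Cre states the fitted difference of del against no del was 0.40 on the log2 scale (SE 0.08), that of Spo11-Cre against no Cre 0.23 (SE 0.08), and that of the fl/fl groups against wt/fl 0.46 (SE 0.12).

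*Ppwd1* went the other way, highest in wt/fl. Its level was 44.1, 37.5, 40.0 and 36.1 CPM in wt/fl and 26.0, 24.0, 14.7 and 21.7 CPM in fl/del, with no overlap and the shallow fl/del replicate 3 the lowest. With both del and Spo11-Cre *Ppwd1* had 22.6, 20.1, 18.2 and 28.4 CPM, below every wt/fl library. Those values lay inside the range of wt/fl Spo11-Cre, the group of the same Cre state, at 14.9 to 38.9 CPM. The fl/fl Gdf9-Cre libraries were at 23.0 and 32.2 CPM, below wt/fl, and the fl/fl Zp3-Cre libraries at 30.5 and 39.8 CPM, on both sides of the lowest wt/fl library.

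In wt/fl Spo11-Cre *Ppwd1* split with the library names. Replicates 1 and 2, which share 1 prefix, had 17.7 and 14.9 CPM, replicates 3 and 4, which share another, had 38.9 and 36.4, and replicate 5 had 28.1. The first pair lay in the fl/del range and the second in the wt/fl range, a gap of 2.05 times between the nearest libraries. Of 9479 genes with a mean of at least 5 CPM, 17 (0.179%) had a gap as large between these 2 pairs. *Ppwd1* was listed with its levels in these libraries known, so nothing is read from that share. *Cenpk* averaged 90.1 CPM in the first pair and 84.7 in the second, and *Trim23* 14.4 and 23.0 CPM. Over the 8 pairs that share a prefix the median fold between the libraries of a pair was 1.15 for *Ppwd1* and 1.06 for *Cenpk*. Over the 20 pairs of 1 group with different prefixes it was 1.34 and 1.15.

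From low to high, *Ppwd1* averaged 21.6 CPM ± 4.90 (SD, n = 4) in fl/del and 22.3 ± 4.42 (SD, n = 4) once Spo11-Cre was added. Then came wt/fl Spo11-Cre at 27.2 ± 10.8 (SD, n = 5) and fl/fl Gdf9-Cre at 27.6 ± 6.47 (SD, n = 2). Zp3-Cre, at 35.2 ± 6.58 (SD, n = 2), and wt/fl, at 39.4 ± 3.52 (SD, n = 4), were highest, and each step again overlapped. The fitted log2 difference of del against no del was -0.58 (SE 0.14). It was -0.84 (SE 0.20) without Cre and -0.32 (SE 0.19) with Spo11-Cre, a gap of 0.52 (SE 0.28) between the Cre states that was not tested. Spo11-Cre against no Cre gave -0.25 (SE 0.14), with -0.51 (SE 0.19) in wt/fl and 0.01 (SE 0.20) in fl/del.

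**Figure D1:**
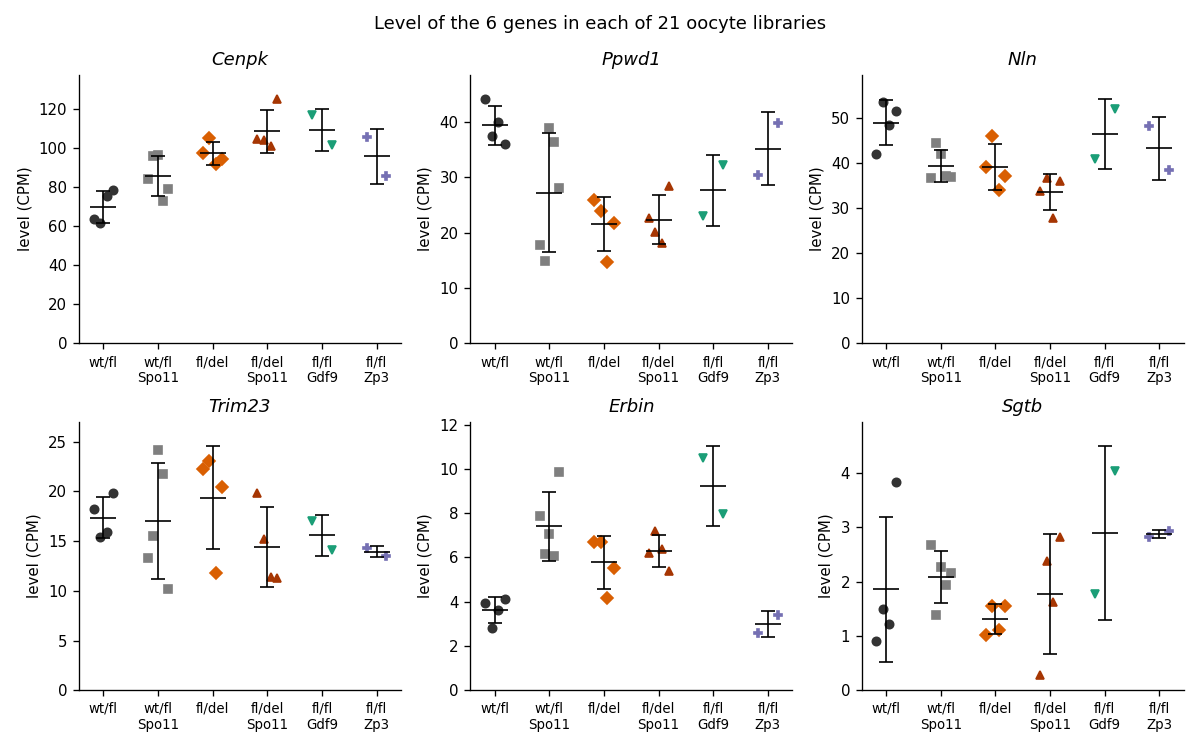
Level of each of the 6 genes in CPM (linear axes from 0) in 21 libraries; points are libraries by group, Spo11, Gdf9 and Zp3 on the axis standing for the Cre driver, and bars are the group mean ± SD. The 4 fl/del libraries of *Cenpk* (92.2 to 105 CPM) sit above the 4 wt/fl libraries (62.0 to 78.9), those of *Ppwd1* (14.7 to 26.0) below wt/fl (36.1 to 44.1), and the wt/fl Spo11-Cre libraries of *Ppwd1* span 14.9 to 38.9.

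The balance of this divergent pair was set out as the TPM of *Cenpk* over that of *Ppwd1*. The ratio was 1.63, 1.86, 2.12 and 2.46 in wt/fl and 4.23, 4.94, 7.04 and 4.91 in fl/del. With del and Spo11-Cre together the ratio was 5.20, 5.84, 6.26 and 4.97. Both genes were listed with their differences known, so nothing is read from the gap to wt/fl. In wt/fl Spo11-Cre it was 5.34 and 7.25 in the first prefix pair, 2.79 and 2.25 in the second, and 3.17 in replicate 5. The fl/fl libraries had 5.70 and 3.56 (Gdf9-Cre) and 3.91 and 2.43 (Zp3-Cre). The sum of the 2 genes varied less, from 45.3 to 69.9 TPM. It averaged 49.3 ± 3.34 (SD, n = 4) in wt/fl, 50.2 ± 5.91 (SD, n = 5) in wt/fl Spo11-Cre and 53.9 ± 4.94 (SD, n = 4) in fl/del. In fl/del Spo11-Cre the sum averaged 59.1 ± 7.35 (SD, n = 4) and in the fl/fl groups 60.9 ± 3.45 (SD, n = 4). The libraries of these last groups, from 54.4 TPM up, were all above the highest wt/fl library, at 52.7. *Cenpk* made up most of the sum, with a mean of 32.9 TPM in wt/fl. Across the 21 libraries the Pearson correlation of the log2 levels of *Cenpk* and *Ppwd1* was -0.49 (Spearman -0.41), a description over libraries that share genotypes, mice and depth.

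**Figure D2:**
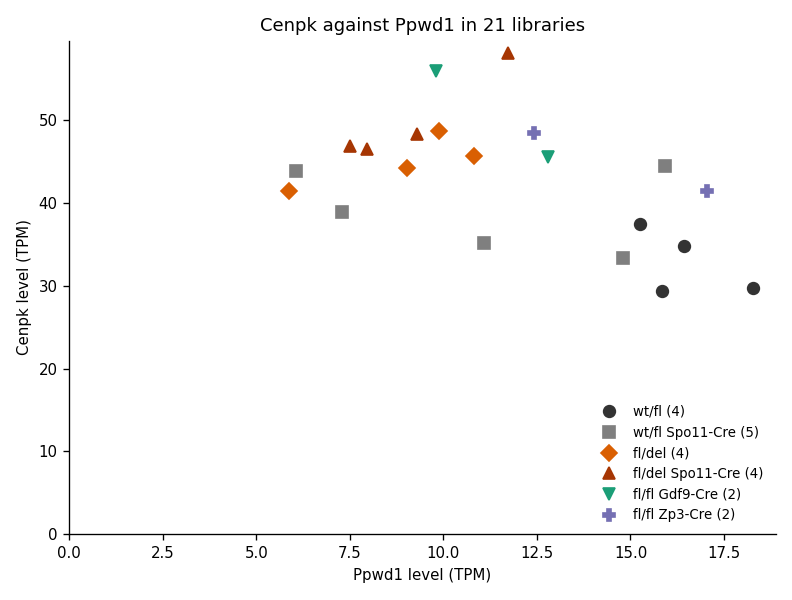
*Cenpk* against *Ppwd1* in TPM (linear axes from 0), 1 point a library, with the number of libraries a group in brackets. The 4 wt/fl libraries lie at the lower right with *Cenpk* over *Ppwd1* ratios of 1.63 to 2.46, the 8 libraries with a del allele to their upper left with ratios of 4.23 to 7.04, and the 5 wt/fl Spo11-Cre libraries spread between 2.25 and 7.25.

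*Nln* was also highest in wt/fl, by a smaller margin. It had 42.1, 53.5, 48.5 and 51.6 CPM in wt/fl, 39.1, 46.1, 34.0 and 37.1 in fl/del and 33.8, 36.6, 27.8 and 36.1 with del plus Spo11-Cre. The fl/del libraries overlapped wt/fl. In wt/fl Spo11-Cre *Nln* ran from 36.6 to 44.4 CPM and in the fl/fl groups from 38.3 to 51.9. The log2 difference was -0.28 (SE 0.10) for del and -0.27 (SE 0.10) for Spo11-Cre, and -0.22 (SE 0.15) for the fl/fl groups. *Nln* and *Ppwd1* had the highest correlation of any 2 of the 6 genes, 0.52 over the 21 libraries (Spearman 0.56).

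*Erbin*, at a low level, was higher with Spo11-Cre in wt/fl but overlapped between the Cre states in fl/del. It had 3.92, 2.83, 3.64 and 4.14 CPM in wt/fl, from counts of 36 to 56, and 7.88, 6.13, 7.04, 6.06 and 9.87 CPM in wt/fl Spo11-Cre. All 5 libraries with Cre were above the 4 without. In fl/del it had 6.72, 6.68, 4.16 and 5.52 CPM, and the lowest of these, the shallow replicate 3 with 30 counts, exceeded the highest wt/fl library by less than the value of 1 count. The fl/del Spo11-Cre libraries had 6.19, 7.19, 6.36 and 5.40 CPM of *Erbin*, which overlapped both fl/del and wt/fl Spo11-Cre.

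The other drivers gave *Erbin* opposite ends of its range, 10.5 and 7.94 CPM with Gdf9-Cre and 2.56 and 3.42 CPM with Zp3-Cre, from counts of 20 to 113. The fitted log2 difference of Spo11-Cre against no Cre was 1.05 (SE 0.31) in wt/fl and 0.09 (SE 0.32) in fl/del, and that of del against no del was 0.70 (SE 0.32) without Cre and -0.26 (SE 0.30) with it. Against wt/fl, Gdf9-Cre gave 1.27 (SE 0.38) and Zp3-Cre -0.38 (SE 0.43).

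*Trim23* and *Sgtb* overlapped in their libraries in every comparison of groups counted below. *Trim23* ran from 10.2 to 24.2 CPM, and both ends were wt/fl Spo11-Cre libraries. Its group means were between 14.0 and 19.4 CPM and its log2 difference for del was -0.03 (SE 0.16). That was 0.19 (SE 0.23) without Cre and -0.26 (SE 0.22) with Spo11-Cre. For Spo11-Cre *Trim23* had -0.23 (SE 0.16), with -0.01 (SE 0.21) in wt/fl and -0.46 (SE 0.23) in fl/del. The fl/fl groups gave -0.32 (SE 0.23). *Sgtb* ran from 0.284 to 4.02 CPM, from counts of 4 to 49. Its log2 difference was -0.37 (SE 0.42) for del, 0.29 (SE 0.42) for Spo11-Cre and 0.54 (SE 0.58) for the fl/fl groups. An effect of the size seen for *Cenpk* was not detectable for *Sgtb* at this depth.

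Counted by whether libraries overlapped, 3 of the 6 genes were apart between fl/del and wt/fl (*Cenpk* and *Erbin* higher, *Ppwd1* lower), where 2.99% of the 22383 genes tested were apart in either direction. With Spo11-Cre in both groups 1 of 6 was apart (*Cenpk*, higher) beside 1.85% of all genes. For Spo11-Cre in wt/fl 1 of 6 was apart (*Erbin*, higher) beside 4.95%, for Spo11-Cre in fl/del 0 of 6 beside 3.65%, and between the 4 fl/fl libraries and wt/fl 1 of 6 (*Cenpk*, higher) beside 6.14% of 23225 genes. The genes were listed from such contrasts, so nothing is read from these counts. edgeR's quasi-likelihood test, at an adjusted p under 0.05 over all genes tested, called 0.00894% of genes for del, 1.43% for the Cre driver and 2.79% in the fl/fl groups. Calls on the 6 genes are not given, since the same contrasts chose them. The wt/fl libraries serve as controls in several of these comparisons, so the differences from wt/fl share their errors.

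The neighbours outside the 6 genes were tested. They are what remained once the 6 had been picked with results known, so a low count of calls among them is partly set by that choice. Within 1 Mb on either side of the 6 genes lie 10 other protein-coding genes, namely *Mast4*, *Srek1*, *Trappc13*, *Adamts6*, *Cwc27*, *Srek1ip1*, *Shisal2b*, *Rgs7bp*, *4933425L06Rik* and *Rnf180*. edgeR tested 9 of them for del and called 0, with 1 at an unadjusted p under 0.05, and DESeq2 called 0. Their median log2 difference was 0.08, beside -0.005 over all genes tested. For Spo11-Cre it again called 0 of 9, with 1 at an unadjusted p under 0.05, and DESeq2 called 0. For the fl/fl groups edgeR called 0 of 10 with 3 under an unadjusted p of 0.05, and DESeq2 called 3 (*Mast4*, *Srek1ip1* and *Trappc13*). *Adamts6*, *Shisal2b*, *Rgs7bp* and *4933425L06Rik* had a median under 1 CPM.

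*Trappc13*, which is flanked by the 6 genes on both sides and starts 327 bases from *Trim23*, had 146 CPM ± 16.6 (SD, n = 4) in wt/fl, 137 ± 12.5 (SD, n = 4) with the del allele and 142 ± 11.9 (SD, n = 4) with del and Spo11-Cre. Its log2 difference was -0.04 (SE 0.07, edgeR adjusted p 1.00) for del and -0.36 (SE 0.12, edgeR adjusted p 0.0922) for the fl/fl groups. *Srek1ip1*, a partner of a splicing regulator, had 152 exonic bases in common with *Cwc27* on the opposite strand and was at 121 against 99.2 CPM with and without Spo11-Cre (log2 0.29, SE 0.08, edgeR adjusted p 0.0704), and *Mast4*, a microtubule-associated kinase, at 32.5 against 20.3 CPM in the fl/fl groups and wt/fl (log2 0.57, SE 0.17, edgeR adjusted p 0.0581).

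**Figure D3:**
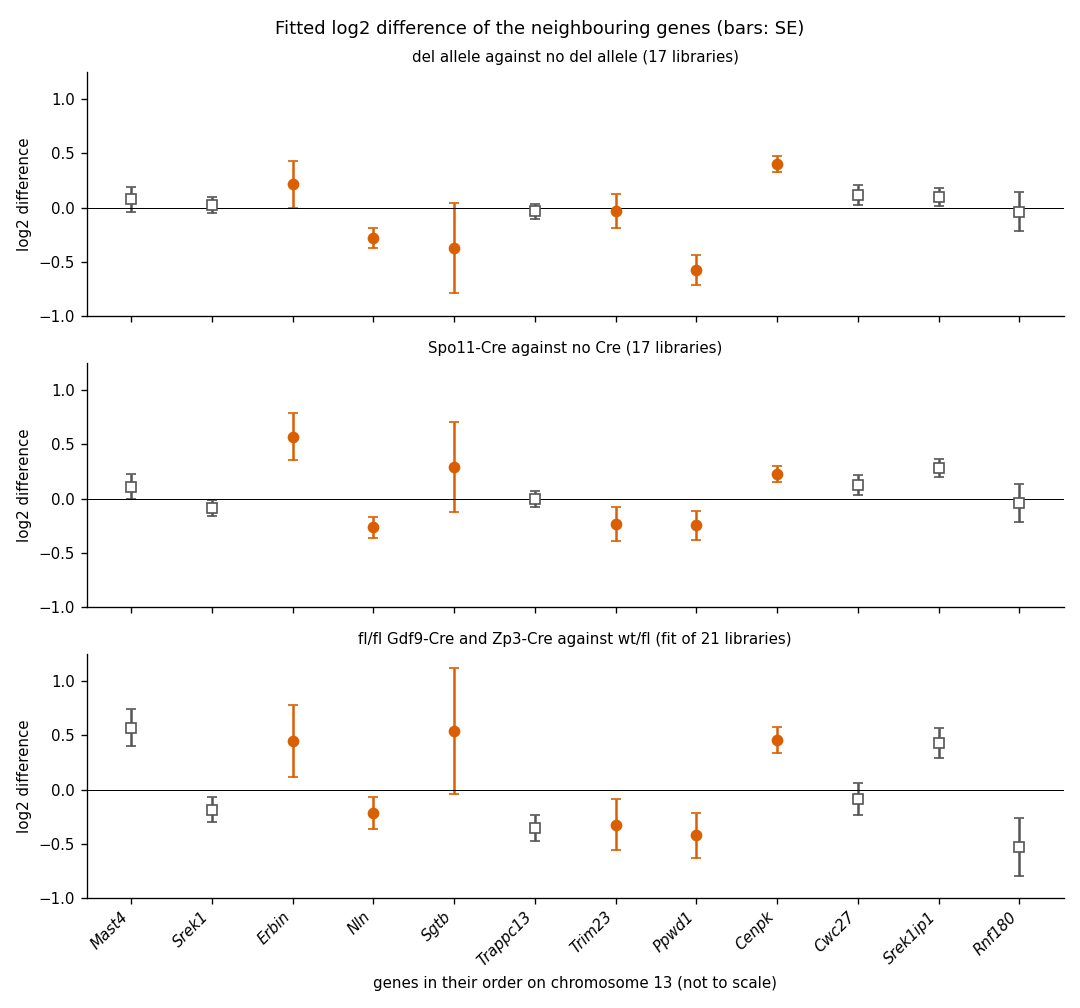
Fitted log2 difference ± SE of the 6 genes (filled circles) and of 6 protein-coding neighbours with a median of at least 1 CPM (open squares), in their order along chromosome 13 and not to scale, for del (top), Spo11-Cre (middle) and the fl/fl groups (bottom). For del, *Cenpk* is at 0.40 and *Ppwd1* beside it at -0.58, while the open squares lie between -0.04 and 0.11. The 6 genes were listed with these differences known, so nothing is read from that contrast.

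*Cenpk* was set beside 16 other genes of the constitutive centromere network and CENP-A. *Cenpk* was listed with its differences known, so nothing is read from how it compares with them. edgeR called 0 of the 16 for del and 0 at an unadjusted p under 0.05, and DESeq2 called 0. Their log2 differences ran from -0.35 to 0.10 with a median of -0.03, beside -0.005 over all genes. *Cenpi*, *Cenph* and *Cenpm*, whose products sit in the same subcomplex as CENP-K, had -0.35 (SE 0.18), -0.09 (SE 0.07) and -0.08 (SE 0.07). *Cenpl* had -0.23 (SE 0.13) and *Cenpp* -0.13 (SE 0.10). For Spo11-Cre edgeR called 0 of 16 with 2 at an unadjusted p under 0.05, and DESeq2 called 1 (*Cenps*). For the fl/fl groups it called 2. *Cenpm* fell from 216 CPM ± 7.48 (SD, n = 4) in wt/fl to 178 ± 25.0 (SD, n = 2) with Gdf9-Cre and 161 ± 35.2 (SD, n = 2) with Zp3-Cre (log2 -0.44, SE 0.11, edgeR adjusted p 0.0133). *Cenpq* rose from 199 CPM ± 21.7 (SD, n = 4) to 262 ± 6.84 (SD, n = 2) and 286 ± 10.7 (SD, n = 2) (log2 0.37, SE 0.11, edgeR adjusted p 0.0416). Neither call remained when libraries sharing a name prefix were summed (edgeR adjusted p 0.103 for *Cenpm* and 0.227 for *Cenpq*) or with Gdf9-Cre alone against wt/fl (0.253 and 0.269). Over all 30 alternatives *Cenpm* stayed called in 25 and *Cenpq* in 19. *Cenpi*, *Cenpu* and *Cenpt* had -0.58, -0.43 and -0.32 there and were not called.

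*Ppwd1* was set beside 8 other cyclophilins of the spliceosome. It too was listed with its differences known, so nothing is read from how it compares with them. For del edgeR called 0 of 8 and 0 at an unadjusted p under 0.05, DESeq2 called 0, and their log2 differences ran from -0.18 (*Ppil1*, SE 0.30) to 0.11 (*Cwc27*, SE 0.09) with a median of -0.01. *Ppih* had -0.14 (SE 0.13). For Spo11-Cre edgeR called 0 with 2 at an unadjusted p under 0.05, and DESeq2 called 1, *Ppil4* (edgeR log2 0.23, SE 0.07, adjusted p 0.0658). For the fl/fl groups edgeR called 0 with 1 at an unadjusted p under 0.05, and DESeq2 called 1, *Ppil2* (edgeR log2 -0.40, SE 0.12, adjusted p 0.0522).

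**Figure D4:**
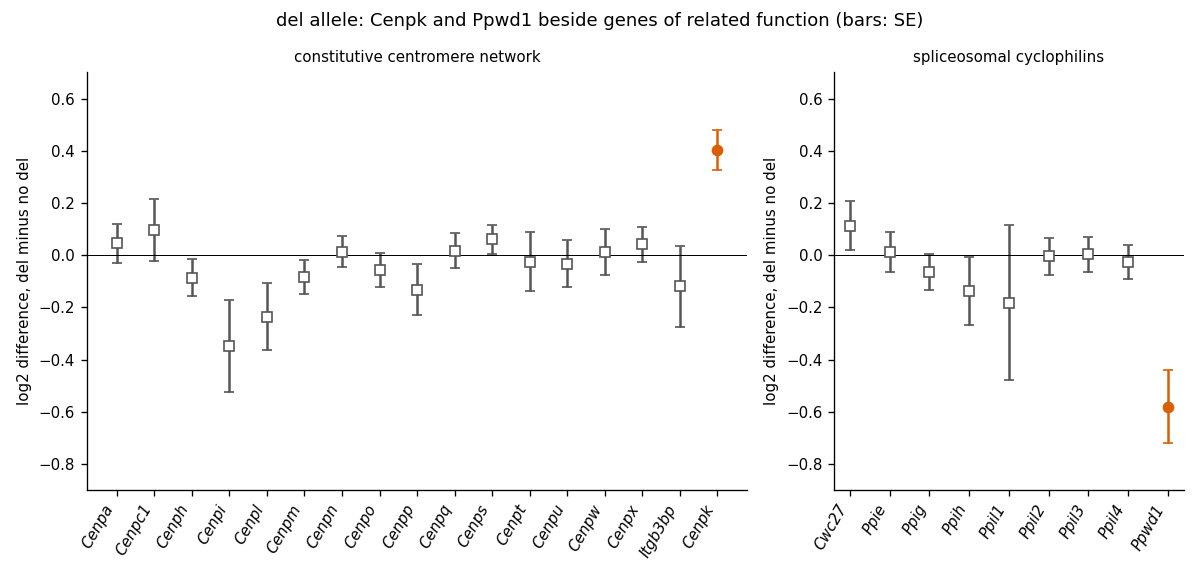
Fitted log2 difference ± SE for del against no del (17 libraries) of *Cenpk* beside 16 genes of the centromere network (left) and of *Ppwd1* beside 8 spliceosomal cyclophilins (right); filled circles mark the members of the chromosome 13 group, open squares the lists. The lists lie between -0.35 and 0.11, with *Cenpk* at 0.40 and *Ppwd1* at -0.58. *Cenpk* and *Ppwd1* were listed with these differences known, so nothing is read from the gap to the lists.

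The genes whose levels ran most like *Cenpk* were named from 9479 genes with a mean of at least 5 CPM, by the Pearson correlation of log2(CPM + 1) over 21 libraries, which share genotypes, mice and depth. They included *Nlrc4* (0.73), *Grm4* (0.72), *BC005561* (0.70) and *Rwdd1* (0.69). *Nlrc4* and *Grm4* are on chromosome 17, and *Grm4* averaged 61.3 CPM in wt/fl and 77.6 in the other 17 libraries. Most like *Ppwd1* were *Coq2* (0.74), an enzyme of ubiquinone synthesis, *Nipsnap2* (0.72), *Zscan12* (0.70), *Inpp5d* (0.70) and *Vps37c* (0.69). *Zscan12* is on chromosome 13, 82.9 Mb from *Cenpk*, and *Coq2* and *Nipsnap2* are on chromosome 5. *Nipsnap2* averaged 71.3 CPM in wt/fl and 55.8 in the other 17 libraries. The named genes are the extremes among 9479 genes over 21 libraries, and the level that chance would give was not computed.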

How the data were processed

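Poly(A) RNA of 21 oocyte libraries was analysed from gene counts. For the deposited counts, which are not normalized, the authors ran fastp, HISAT2 2.2.1 on GRCm38 and featureCounts 2.0.3, keeping reads that mapped to 1 place. How read pairs, and reads in both of 2 overlapping genes, were counted is not given in the sources used here. The deposited TPM values came from the authors by a method not stated.

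Counts were scaled to CPM by library totals. edgeR 4.0.16 (R 4.3.3) fitted a mean per group with TMM library sizes over genes detected (count over 0) in 3 or more libraries, and its quasi-likelihood test was adjusted by Benjamini-Hochberg. For del and Spo11-Cre the 17 libraries of the Spo11-Cre background were fitted, for the fl/fl groups all 21. Each contrast averaged groups equally. The scripts were tested on simulated data. Symbols (54079 genes) and positions came from the GENCODE M21 annotation, sequences from RefSeq.

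The 6 genes and the lists were chosen with earlier results of these data known. Named were the 6 genes, *Kif11*, neighbours between members or called, called list genes with up to 3 others, and the 5 genes most correlated with *Cenpk* and with *Ppwd1*, of which 1 is not reported here. *Cenph*, *Cenps* and the names of neighbours other than *Trappc13* were added after their values were seen. Libraries were taken as replicates, and since some share a mouse, p-values and SEs may be too small. Alternatives were other filters, RLE size factors, DESeq2 1.42.0, a replicate block, libraries summed by name prefix, each Cre state or driver alone, TPM in place of CPM, counts with *Kif11* taken over exon 22, and each library left out. Tables of *Kif11* exon 1 were not used here. There were 0 unused columns of per-sample values in the tables used.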

Additional observations from a re-analysis of the deposited data

Results flagged for a closer look

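In 36 sets of 4 or 5 libraries, each checked for 1 library far from the rest of its group (chance flags about 1 set in 20), 3 stood apart. *Cenpk* in fl/del Spo11-Cre replicate 4 was at 125 CPM, with the other 3 libraries at 101 to 105. *Trappc13* in wt/fl replicate 3 was at 170 CPM, with the other 3 at 135 to 140. The total count of fl/del replicate 3 was 7205010, with the other 3 at 15635115 to 16836618. Leaving out each library in turn gave a log2 difference of *Cenpk* for del of 0.37 to 0.44, beside 0.40 with all of them. The lowest, 0.37, came from leaving out the flagged fl/del Spo11-Cre replicate 4.

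The difference that the del allele made to *Kif11* itself was larger with Spo11-Cre than without, by -2.32 on the log2 scale (edgeR interaction term, adjusted p 1.208e-05). The genotypes set this in advance, since Cre leaves fl/del without an intact allele while wt/fl keeps its wt allele. No tested neighbour, centromere or cyclophilin gene had a difference between the Cre states at an adjusted p under 0.05. For the 6 genes the difference between the Cre states was not tested.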

How the results depend on the processing

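The log2 difference of *Cenpk* for del was 0.31 to 0.49 over 28 alternatives and that of *Ppwd1* -0.84 to -0.32. Leaving out each of 17 libraries gave 0.37 to 0.44 and -0.66 to -0.50. Of 516 recomputed differences of the 6 genes, 509 moved by less than the spread between libraries. That spread was the pooled SD of single libraries, a wide margin for a difference between group means. Many alternatives left out only 1 library, so a move past it was unlikely. Even the range of *Ppwd1* for del, -0.84 to -0.32, lay inside it. The 7 that moved by more were all of *Erbin*: 0.70 and -0.26 for del without and with Spo11-Cre, 1.05 and 0.09 for Spo11-Cre in wt/fl and in fl/del, 1.27 and -0.38 for Gdf9-Cre and Zp3-Cre alone, and 0.74 for the fl/fl groups from TPM.

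Counts of called genes depended on the setting. Leaving out each library in turn gave 1 to 4 for del, 175 to 375 for Spo11-Cre and 303 to 1353 for the fl/fl groups. The del count was 4 without wt/fl Spo11-Cre replicate 1, 2 or 5 or fl/del replicate 1, and 1 without wt/fl Spo11-Cre replicate 4 or fl/del replicate 2. The Spo11-Cre count was 175 without fl/del Spo11-Cre replicate 2, 212 without fl/del replicate 4 and 213 without wt/fl replicate 2. The fl/fl count was 303 without Zp3-Cre replicate 1, 1353 without Zp3-Cre replicate 2, 392 without Gdf9-Cre replicate 2 and 408 without wt/fl replicate 2. For del, no filter gave 26, filterByExpr 1, DESeq2 6, the pair without Cre 5, the pair with Spo11-Cre 8 and the fit of all 21 libraries 1. For Spo11-Cre, no filter gave 532, DESeq2 559, wt/fl alone 491 and fl/del alone 54. For the fl/fl groups, summing libraries by name prefix gave 233, DESeq2 1109 and Gdf9-Cre alone 343. With the replicate block the counts were 29 for del, 477 for the driver and 824 in the fl/fl groups. The numbers share no stated origin, and deviations of same-numbered libraries had a median correlation of -0.00675 over 42 pairs, so the block is not a pairing. Depth limits *Sgtb* and *Erbin* most, at counts of 4 and 20 in their lowest library.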
